A study of Cicer arietinum with 4 samples.

Results

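In chickpea ovules, 220 genes, most of them under 10 FPKM before fertilization, stood at least 8 times higher after it. They were picked from a deposited table of 28783 genes by 5 limits. A member has an identifier that begins with LOC and a span of at least 300 bp. It is above 0 in at least 1 pre-fertilization library, at 10 FPKM or more in both post-fertilization libraries, and its smaller post value is at least 8 times its larger pre value. Of the 26792 genes with such an identifier and span, the 220 were 0.821%. The values of all 4 libraries chose the members, so their rise is the rule itself and is given as a description, from which no test result is read.

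Chickpea (Cicer arietinum) is a grain legume, and all plants were of cultivar ICC4958. The post-fertilization group holds ovules from half-opened flowers and the pre-fertilization group ovules from closed buds, with 2 libraries each. The libraries are called post A, post B, pre A and pre B, because the column names give the group and not which sample of it they hold. Flower stage and fertilization differ together between the groups and cannot be told apart. The labels do not say whether the libraries of a group came from separate plants, so the spread between them may be technical. The ovule and petal markers looked for (SEEDSTICK, WUSCHEL, INNER NO OUTER and PISTILLATA among them) are not among the table's symbols, so tissue identity was not checked. Floral symbols that it does hold, such as AP2 and LFY, were not used as markers.

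Flowering plants fertilize doubly: one sperm cell joins the egg cell and starts the embryo, and the other joins the central cell and starts the endosperm, the tissue that feeds it. The integuments around them become the seed coat. In a bulk sample, more cells of a type and more RNA per cell cannot be told apart. FPKM counts fragments per length of transcript and per mapped fragments of the library, so levels may be compared between genes.

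The tables used here give no symbol or product name to any of the 220 genes, so no role is stated for them and they are called by their identifiers. The RefSeq gene table matched 214 of the 220 by gene number, 211 as protein-coding genes and 3 as long non-coding RNAs (LOC101510874, LOC113785465 and LOC101498178). The other 6 (LOC101492831, LOC101503596, LOC105851353, LOC113784655, LOC113786540 and LOC113787072) had no match. Positions are those of the deposited table, for which no source used here names a genome build.

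Sequencing depth differed. Where the authors counted whole fragments, the lowest values on a gene mark 1 fragment. Taken from the lower edge of FPKM times span, 1 fragment on an unspliced gene of 2000 bp was worth about 0.0351 FPKM in post A and 0.0322 in post B, against 0.0354 in pre A and 0.0635 in pre B. Relative to pre A the depth was thus 1.01 in post A, 1.10 in post B and 0.557 in pre B, and low values are coarsest in pre B. Since a transcript is no longer than its gene, the same edge gives an upper estimate of the number of fragments behind a pre value. It is not a strict limit, because the edge is the 1st percentile and not the lowest value. LOC101508612, for example, is above 0 in pre A and gets 0.970 fragments. Below, "at most" said of fragments refers to this estimate. These numbers are estimates, and they cover counting error only.

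The members held a larger share of summed FPKM in both post libraries than in either pre library. Their median level was 32.3 FPKM in post A and 45.6 in post B, against 1.07 in pre A and 1.002 in pre B. Ranked among the 26792 genes from the highest level down, the median member was 3789th in post A and 2674th in post B, against rank 16228 in pre A and 16414 in pre B. Their summed FPKM was 3.56% and 4.40% of that of the 26792 genes in post A and post B, against 0.173% and 0.155% in pre A and pre B. Of the summed FPKM of all 28783 genes, short genes included, they held 0.961% in post A and 0.740% in post B, against 0.0620% in pre A and 0.0460% in pre B. On that wider base the share is several times smaller and post A, not post B, has the larger one. Among the 100 most abundant genes were 7 members in post A and 9 in post B, against 0 in either pre library. Among the 1000 most abundant there were 45 in post A and 52 in post B, against 0 in pre A and pre B.

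Within the 220, starting levels varied far more than the rule requires. The larger pre value was under 1 FPKM in 94 members, from 1 to under 5 FPKM in 85, from 5 to under 10 FPKM in 18 and at 10 FPKM or more in 23. The last 23 are low only in relation to what they reached. Listed at 0 in 1 of the pre libraries were 23 members, 8 in pre A and 15 in pre B, the shallower library. After fertilization the mean was at 100 FPKM or more in 51 members, from 20 to under 100 FPKM in 130 and under 20 FPKM in 39.

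**Figure D1:**
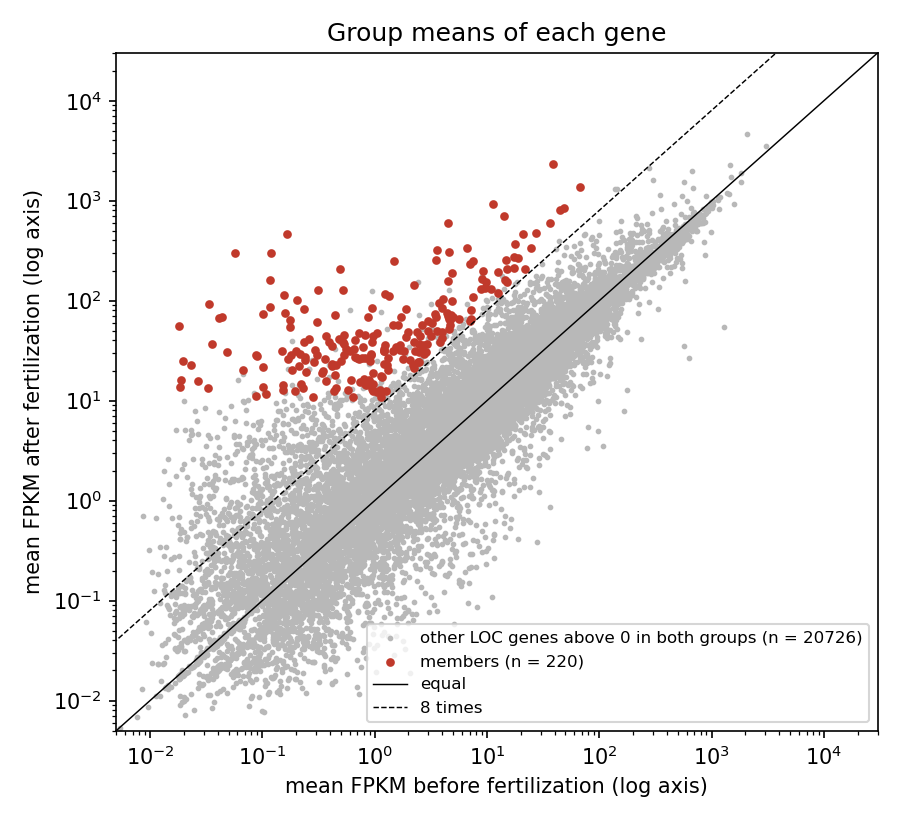
Mean FPKM after fertilization (vertical) against mean FPKM before it (horizontal) for each LOC gene spanning at least 300 bp and above 0 in both groups, on log axes. Red points are the 220 members, grey points the other genes, the solid line equality and the dashed line 8 times; members reach from a pre mean of 0.0183 FPKM to one of 67.4 FPKM.

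The ratio of the smaller post to the larger pre value had a median of 18.7. It lay between 8 and 16 in 98 members, between 16 and 64 in 75 and at 64 or more in 47. The ratio of group means, which does not take the least favourable pair of libraries, had a median of 32.9. Many of the highest ratios rest on few fragments before fertilization. Of the 47 members at a ratio of 64 or more, 27 had at most 10 fragments in the pre libraries together and 15 at most 3. Over all 220, at most 3 fragments stood behind the pre level of 17 members and more than 100 may stand behind that of 89.

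At the limit of 8 the members pass into the genes left out without a gap, and without post A 394 genes would meet the rule. Just inside were LOC101489198 at a ratio of 8.01, LOC101491355 at 8.05 and LOC101497282 at 8.05. Just outside were LOC101497017 at 7.97, LOC101510308 at 7.94 and LOC101490630 at 7.89. LOC101489198 stood at 66.4 FPKM in post A and 57.5 in post B, against 6.91 in pre A and 7.18 in pre B. Its neighbour outside, LOC101497017, stood at 45.7 FPKM in post A and 48.9 in post B, against 5.73 in pre A and 4.44 in pre B. In both genes the 4 libraries separate by group in the same way. At the limit of 10 FPKM, LOC101506257 was inside with 10.1 FPKM in post A and 11.8 in post B, and LOC101512274 with 11.6 and 10.1. LOC101490366 was outside with 9.77 FPKM in post A and 12.2 in post B, and LOC101490115 with 16.4 and 9.70.

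The 12 members with the highest ratio were almost silent before fertilization. No pre value among them was above 0.280 FPKM, while their post values ran from 23.3 to 583 FPKM. In 8 of the 12, 1 pre library was listed at 0, and in 5 at most 3 fragments stood behind the pre level. RefSeq gives each of the 12 a single transcript and calls 11 of them protein-coding.

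LOC101500970, on chromosome 5 from 31693597 to 31697579, led the order. It stood at 353 FPKM in post A and 583 in post B, against 0.0512 in pre A and 0.280 in pre B. The ratio of smaller post to larger pre value was 1261. In rank it was 239th in post A and 80th in post B, against 20496th in pre A and 18479th in pre B. The pre values can stand for at most 2.88 fragments in pre A and 8.78 in pre B, so the ratio is coarse.

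LOC101506045, on chromosome 2 from 2382741 to 2389252, stood at 251 FPKM in post A and 344 in post B, against 0.240 in pre B, and was listed at 0 in pre A. LOC101492646, on chromosome 4 from 30481229 to 30486911, stood at 143 FPKM in post A and 177 in post B, against 0.147 in pre A and 0.0890 in pre B. These were above 100 FPKM in both post libraries, as was LOC101500970 and no other of the 12. LOC101498147, on an unplaced scaffold from 47750 to 49155, stood at 91.5 FPKM in post A and 504 in post B, against 0.115 in pre A, and was listed at 0 in pre B. Its post libraries differed 5.51-fold, more than those of any other of the 12.

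LOC101498854, on chromosome 5 from 34855891 to 34857934, stood at 75.2 FPKM in post A and 110 in post B, against 0.0664 in pre A, and was listed at 0 in pre B. LOC101497870, on chromosome 5 from 43657408 to 43660604, had nearly equal post values of 69.3 FPKM each, against 0.0876 in pre A, and was listed at 0 in pre B. LOC101506754, on chromosome 5 from 36469595 to 36473132, stood at 70.8 FPKM in post A and 39.8 in post B, against 0.0366 in pre A, and was listed at 0 in pre B. With LOC101500970 and LOC101496335, these put 5 of the 12 on chromosome 5, which held 19 of all 220 members. That chromosome held 3088 of the 26792 genes, and the difference was not tested.

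LOC101496335 stood at 23.3 FPKM in post A and 37.9 in post B, against 0.0340 in pre A and 0.0634 in pre B. LOC101514778, on an unplaced scaffold, stood at 33.7 FPKM in post A and 40.7 in post B, against 0.0706 in pre A, and was listed at 0 in pre B. LOC101509054, on chromosome 3, stood at 24.6 FPKM in post A and 24.98 in post B, against 0.0396 in pre A, and was listed at 0 in pre B. These were the lowest of the 12 after fertilization, and the pre value of LOC101509054 can stand for at most 1.07 fragments.

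LOC101509007, on chromosome 6 from 16856598 to 16859048, stood at 125 FPKM in post A and 76.5 in post B, against 0.236 in pre A and 0.172 in pre B. LOC101510874, on chromosome 3 from 7763616 to 7764240, is annotated as a long non-coding RNA, a transcript with no recognised protein. It stood at 77.0 FPKM in post A and 97.0 in post B, against 0.235 in pre A, and was listed at 0 in pre B. The other long non-coding RNAs were LOC113785465, at 37.4 FPKM in post A and 90.7 in post B, against 0.355 in pre B and a listing at 0 in pre A, and LOC101498178. LOC101498178 stood at 20.1 FPKM in post A and 28.5 in post B, against 2.40 in pre A and 2.49 in pre B.

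The 8 most abundant members after fertilization were a different set, none of them among the 12. They held 34.8% of the members' summed FPKM in post A and 33.7% in post B. Their means rose 16.4- to 133-fold, and none of their post values was below 418 FPKM. By the upper estimate, about 234 fragments may stand behind the pre level of LOC101512278, and more behind those of the others of the 8. Among the 12 the highest such estimate was 15.8, so the folds of the 8 are probably less coarse.

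LOC101494711, on chromosome 1 from 6096319 to 6098041, reached the highest level of all members. It stood at 1961 FPKM in post A and 2647 in post B, against 39.6 in pre A and 38.5 in pre B. This made it the 5th most abundant of the 26792 genes in post A and the 3rd in post B, against 2761st in pre A and 2810th in pre B. The mean was 2304 ± 486 FPKM after fertilization and 39.1 ± 0.805 before (SD, n = 2 each), a 59.0-fold ratio.

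LOC101500893, on chromosome 7 from 1039767 to 1041774, had the highest pre values of all members. It stood at 1058 FPKM in post A and 1658 in post B, against 73.2 in pre A and 61.6 in pre B. LOC101496748, on chromosome 4 from 7010738 to 7012975, stood at 1062 FPKM in post A and 775 in post B, against 11.3 in pre A and 11.5 in pre B. LOC101512278, on an unplaced scaffold from 101919 to 104288, had the largest fold of the 8. It stood at 418 FPKM in post A and 779 in post B, against 4.48 in pre A and 4.50 in pre B, a 133-fold ratio of means.

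LOC101492831, on chromosome 8 from 15941648 to 15942135, spans 488 bp, the shortest span among the members, and has no RefSeq match. It stood at 918 FPKM in post A and 764 in post B, against 52.0 in pre A and 45.4 in pre B. LOC101501903, on an unplaced scaffold from 18082 to 23899, overlaps another gene of the table, so its fragments may be shared. It stood at 897 FPKM in post A and 727 in post B, against 45.1 in pre A and 43.7 in pre B. In each of these 6 genes the pre values lay closer together than the post values, as ratios, and the groups did not come near each other.

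LOC101499199 and LOC101514818, both on chromosome 1, were the exceptions on the pre side. LOC101499199 stood at 510 FPKM in post A and 896 in post B, against 19.7 in pre A and 8.85 in pre B. LOC101514818 stood at 520 FPKM in post A and 683 in post B, against 48.6 in pre A and 24.9 in pre B. In both genes the pre values differed more than the post values, and the groups stayed far apart.

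**Figure D2:**
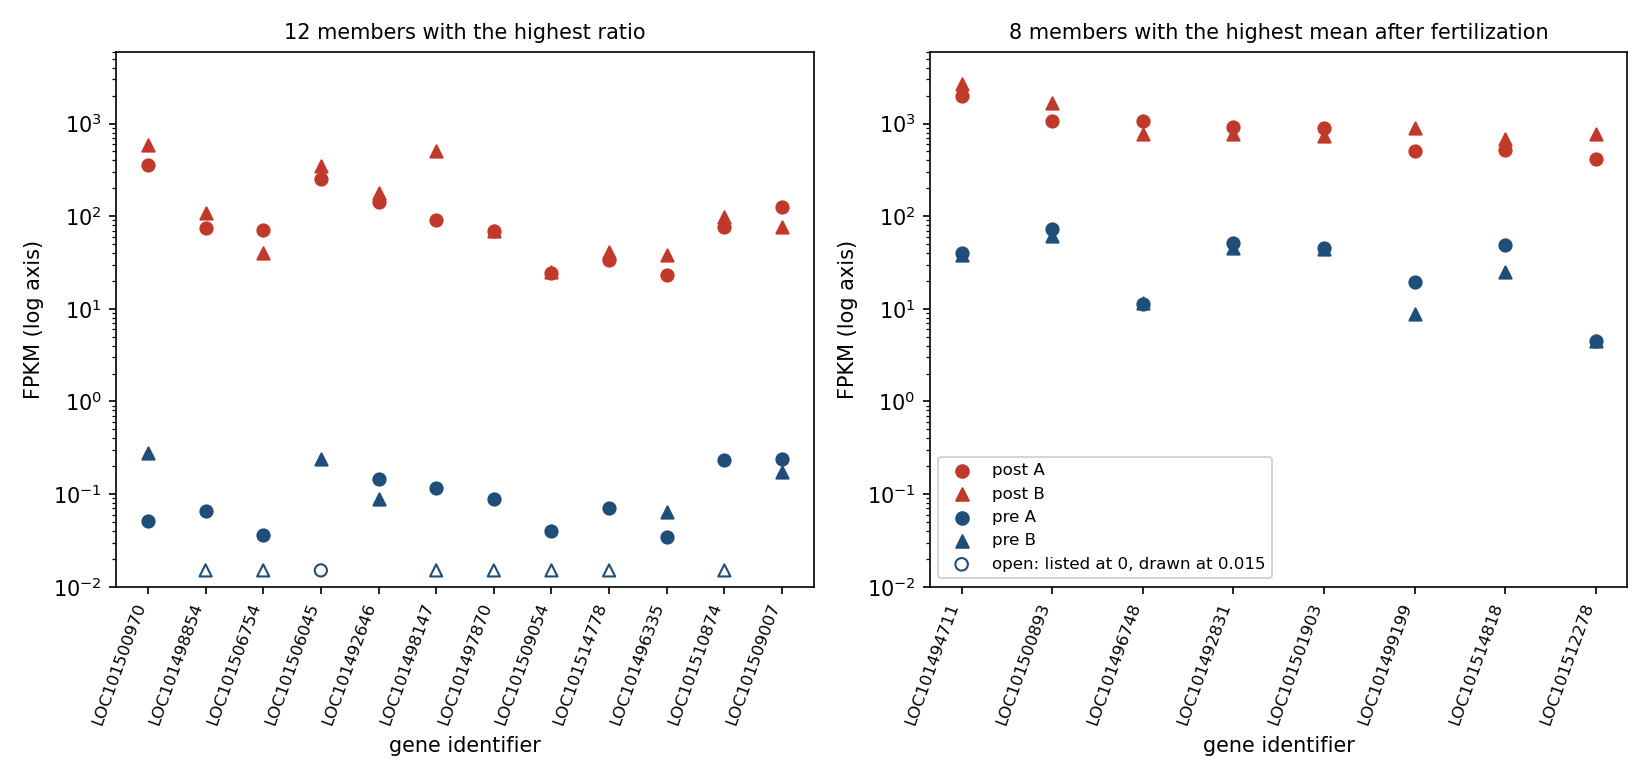
FPKM in each library (vertical, log axis) of the 12 members with the highest ratio of smaller post to larger pre value (left panel) and the 8 with the highest mean after fertilization (right panel). Red symbols are post libraries and blue symbols pre libraries, with circles for A and triangles for B; open symbols are listed at 0 and drawn at 0.015. No pre value on the left is above 0.280 FPKM and no post value on the right is below 418 FPKM.

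As a description, limma's moderated test over all 17849 genes with at least 1 FPKM in 2 libraries put 219 of the 220 members past an adjusted p of 0.05 as higher, beside 21.0% of all tested genes (15.5% were called lower). Nothing is read from that share, since the rule used the same contrast. The median log2 fold change, on the log2(FPKM + 1) scale, was 3.99 over the members and 0.02 over all tested genes. All members also have both post libraries above both pre libraries by the rule, beside 39.3% of all tested genes. In 94 members neither pre library reached 1 FPKM, so these met the filter on low values only through the post libraries. Leaving out either post library therefore kept 126 members in the fit. Their median log2 fold change was 3.88 when post A was dropped and 3.55 when post B was. Without pre A 187 of the 220 were called and without pre B 182, while the 3754 genes called higher in all became 677 and 579.

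The member not called was LOC101495082, at bases 21198302 to 21199506 of chromosome 3. It stood at 11.8 FPKM in post A and 213 in post B, against 1.40 in pre A and 1.27 in pre B. Its post libraries differed 18.0-fold, the widest gap among the members.

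Most members were higher in post B than in post A. In 163 of the 220 (74.1%) post B was the higher post library. Among the 9205 other LOC genes at 10 FPKM or more in both post libraries it was the higher one in 45.9%. The median log2 ratio of post B to post A was 0.30 over the members, with quartiles of 0.00 and 0.71, and -0.02 over the other genes. The rule takes the smaller post value and does not ask which library holds it. Under quantile normalization, which gives all libraries the same distribution of values, 67.3% of the members and 37.4% of the other genes were higher in post B. No test was made, since the comparison is between 2 single libraries.

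Wide gaps between the post libraries were mostly on that side too. Post B was at least 2 times post A in 38 members (17.3%), beside 1.87% of the other genes. Post A was at least 2 times post B in 4 members (1.82%), beside 0.120% of the other genes. The post values of 80.9% of the members, and of 98.0% of the other genes, lay within a factor of 2.

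After LOC101495082, the widest gap on the post B side belonged to LOC101499001, on chromosome 2 from 9898512 to 9902088. It stood at 32.5 FPKM in post A and 253 in post B, against 3.06 in pre A and 1.44 in pre B, and LOC101498147, described above, came next. On the post A side the widest gap belonged to LOC101495977, on an unplaced scaffold, at 108 FPKM in post A and 26.2 in post B, against 0.0816 in pre B and a listing at 0 in pre A. Even its lower post value was far above both pre values. LOC101496241 followed, at 73.0 FPKM in post A and 24.3 in post B, against 2.02 in pre A and 1.91 in pre B. LOC101488439 stood at 80.4 FPKM in post A and 34.4 in post B, against 2.38 in pre A and 0.864 in pre B. In these genes a mean after fertilization describes neither library well.

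**Figure D3:**
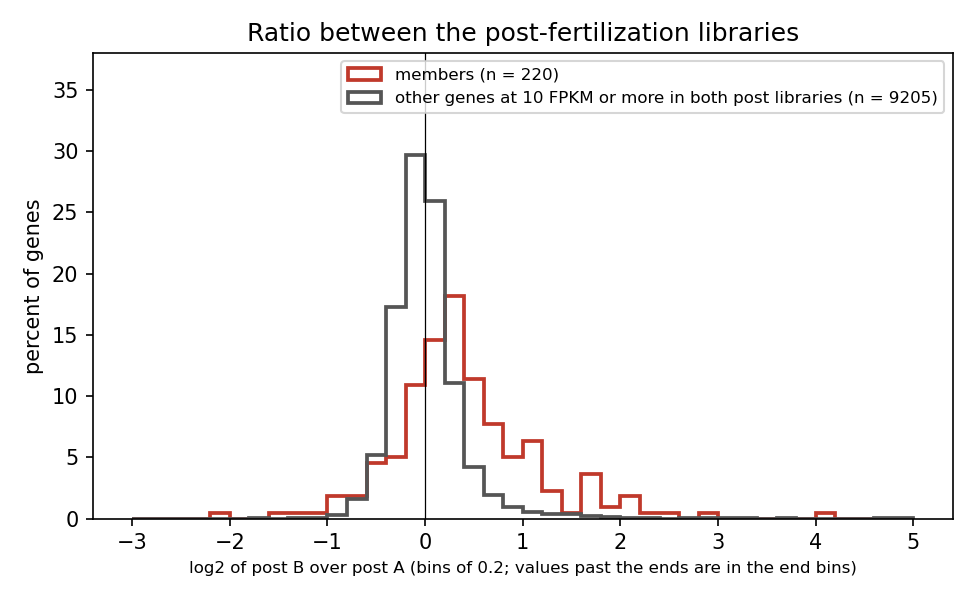
Percent of genes (vertical) by the log2 ratio of post B to post A (horizontal, bins of 0.2) for the 220 members in red and the 9205 other LOC genes at 10 FPKM or more in both post libraries in grey. The members lie to the right of the other genes, with a median of 0.30 beside -0.02, and 17.3% of them lie at 1 or more.

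The lean toward post B was also seen below the limit of 8. Genes at 10 FPKM or more in both post libraries were grouped by the ratio of smaller post to larger pre value. Where that ratio was under 1, 33.4% of 5067 genes were higher in post B. The share was 58.7% of 3348 genes at ratios of 1 to 2, 71.6% of 557 at 2 to 4 and 68.4% of 187 at 4 to 8. Among members it was 71.4% of 98 at ratios of 8 to 16, 77.3% of 75 at 16 to 64 and 74.5% of 47 at 64 or more. The ratio and the comparison of post B with post A share the post libraries, so the steps are a description. Turned round, of 26 genes that meet the same limits with the groups exchanged, 5 were higher in post B than in post A (19.2%). Over all LOC genes of at least 300 bp the share was 41.6%. The 26 genes need not reach 10 FPKM after fertilization, and the difference was not tested.

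**Figure D4:**
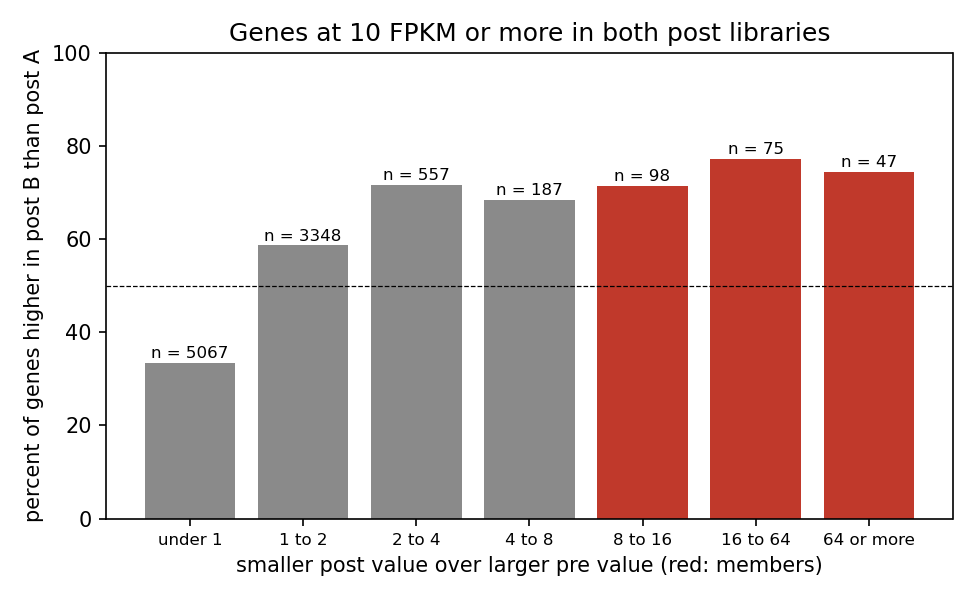
Percent of genes higher in post B than in post A (vertical) by the ratio of the smaller post to the larger pre value (horizontal), among LOC genes at 10 FPKM or more in both post libraries and above 0 before fertilization. Red bars are members and the dashed line marks 50%; the share is 33.4% where the ratio is under 1 and between 71.4% and 77.3% in the members.

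Between the pre libraries 46.8% of the members were higher in pre B than in pre A, beside 43.7% of the other genes at 10 FPKM or more in both post libraries. Of the 197 members above 0 in both pre libraries, 39 differed more than 2-fold between them. In the values as deposited, rises of this size were also more frequent than falls. The 220 members were 2.33% of the 9425 genes at 10 FPKM or more in both post libraries. The 26 falling genes were 0.280% of the 9286 genes at 10 FPKM or more in both pre libraries. Under quantile normalization 188 genes met the rule for rises, and falling genes were not counted under that or any other setting.

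The members had shorter spans, and more often a single annotated transcript, than other genes at their level. Their median span, introns included, was 2545 bp, against 4312 bp for the 9205 other genes at 10 FPKM or more after fertilization and 3174 bp for all 26792. Spans under 2000 bp made up 35.5% of the members, 12.6% of the other genes at that level and 30.5% of all. RefSeq lists a single transcript for 186 of the 214 matched members (86.9%), against 68.4% of the matched other genes at that level and 73.0% of all. The falling genes were similar in span, with a median of 2489 bp, but 66.7% of the 24 matched had a single transcript. A single transcript is not particular to the members, since all 23 matched genes of a small part of the other genes, described next, also had 1. Protein-coding genes were 98.6% of the matched members and 98.9% of the matched other genes at that level. These shares were not tested.

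Of the 9205 other genes at 10 FPKM or more in both post libraries, 46 were listed at 0 in both pre libraries and so fall outside the rule. In annotation, 23 of the 46 matched RefSeq, of which 12 were protein-coding and 7 long non-coding, all 23 had a single transcript, and the median span of the 46 was 878 bp. Of the 46, 80.4% were higher in post B than in post A, with a median log2 ratio of 1.15, and the difference from the members was not tested.

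All 8 chromosomes held members. They made up between 0.615% of the genes on chromosome 5 and 1.14% of those on chromosome 8, and 28 members lay on unplaced scaffolds. Counted only over genes at 10 FPKM or more in both post libraries, the share ran from 1.60% on chromosome 5 to 3.07% on chromosome 2, and it was 3.47% on the scaffolds. Chromosome 5 thus had the lowest percentage of its genes among the members, although chromosome 8, with 17, held fewer of them than its 19, and 5 of the 12 with the highest ratio lie on chromosome 5. None of these shares was tested. Spans of 9 members overlap another gene of the table, and their values are uncertain where fragments were shared.

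Some members lay close to each other. Of the 220, 19 (8.64%) lay within 50 kb of another member, in 10 pairs, and a single pair had no other gene between its members. Within their own sets the share was 15.2% of the 46 genes listed at 0 before fertilization and 0 of the 26 falling genes. Such shares depend on the size of the set, and no set of equal size was counted. Whether 19 is few or many was thus not tested. That pair is LOC101495085, from 23580082 to 23582831, and LOC101495414, from 23596863 to 23601008, on chromosome 3. With LOC101498243, from 23648676 to 23650595, they form the only group of 3. LOC101495085 stood at 59.3 FPKM in post A and 78.8 in post B, against 6.42 in pre A and 3.61 in pre B.

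The closest pair was LOC101501972, from 34120221 to 34122463, and LOC101502302, from 34127546 to 34128903, on chromosome 2. They are 5082 bp apart with 1 gene between them. LOC101501972 stood at 40.5 FPKM in post A and 126 in post B, against 1.79 in pre A and 2.02 in pre B. LOC101502302 stood at 62.5 FPKM in post A and 87.4 in post B, against 0.315 in pre A, and was listed at 0 in pre B. NAC20, of the NAC family of plant transcription factors, is the next gene after LOC101502302, 3094 bp from it and on the side away from LOC101501972. It stood at 0.984 FPKM in post A and 1.42 in post B, against 0.467 in pre A and 0.424 in pre B. No library put NAC20 above 1.42 FPKM, while both members stood above 40 FPKM in both post libraries.

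Partners in some other pairs reached unequal post levels. LOC101492831, described above, lies 43516 bp from LOC101493710, which stood at 54.0 FPKM in post A and 27.6 in post B, against 0.532 in pre A and 0.804 in pre B. LOC101500970, first by ratio, lies 34196 bp from LOC101498505, which stood at 33.0 FPKM in post A and 67.0 in post B, against 3.42 in pre A and 3.78 in pre B. LOC101506754, also among the 12, lies 45490 bp from LOC101505132, at 40.9 FPKM in post A and 45.5 in post B, against 1.69 in pre A and 2.09 in pre B. In the first pair and the second the partners lay far apart after fertilization, and in the third they were close. On chromosome 8, LOC101502936 stood at 146 FPKM in post A and 115 in post B, against 8.75 in pre A and 13.0 in pre B, and its partner is LOC101501974. LOC101494940, on chromosome 7, stood at 79.5 FPKM in post A and 138 in post B, against 7.42 in pre A and 7.54 in pre B, and its partner is LOC101495921. LOC101501412, on chromosome 1, stood at 48.0 FPKM in post A and 48.4 in post B, against 3.56 in pre A and 4.43 in pre B, and its partner is LOC101503319. Of these last genes, LOC101502936 was higher in post A, LOC101494940 in post B, and LOC101501412 nearly equal in both.

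Genes next to members, which the rule did not choose, had a median fold change near that of all genes. Of 287 tested genes adjacent to a member and not members themselves, limma called 75 higher (26.1%) and 40 lower (13.9%) after fertilization. Of all 17615 tested non-members with a position, the neighbours included, 20.1% were called higher and 15.7% lower. The median log2 fold change of the adjacent genes was 0.08, against 0.01. At a distance of 5 genes the shares were 18.6% higher and 16.8% lower, with a median of 0.03. The share called higher was 24.6% at 2 genes, 21.1% at 3 and 17.5% at 4, and no test was made of this order. These calls come from the fit on all libraries.

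**Figure D5:**
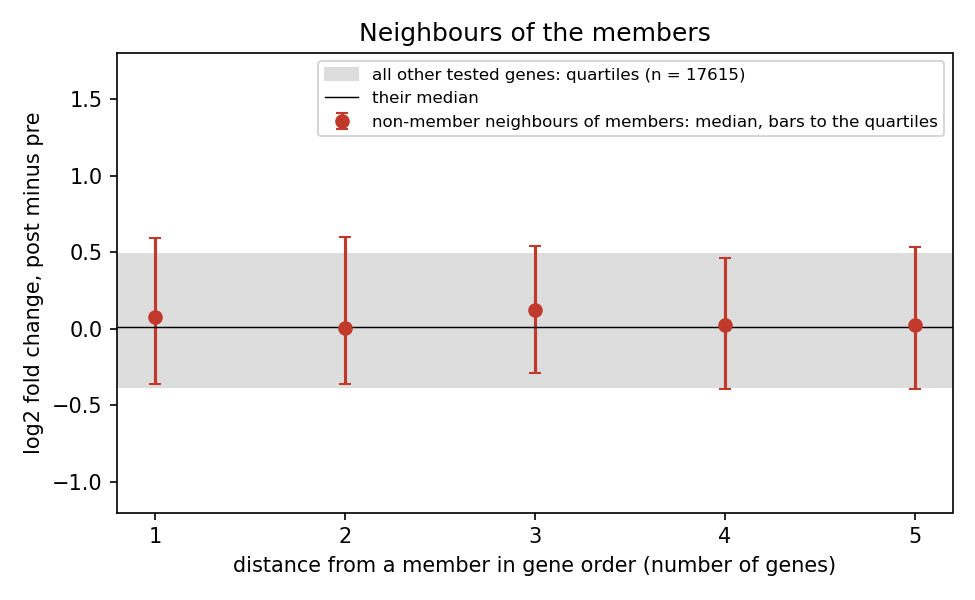
Log2 fold change, post minus pre (vertical), of tested genes that are not members, by their distance in gene order from a member (horizontal). Points are medians and bars reach to the quartiles. The grey band and line give the quartiles and median of all 17615 tested non-members with a position, the neighbours included. The medians lie between 0.00 and 0.12 at all 5 distances.

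Some named genes lay close to members. Within 50 kb of a member lay 17 genes with a symbol, tRNA genes left out, of which 12 were tested. Of these 1 was called higher and 3 lower, beside 21.0% and 15.5% of all tested genes. With 12 genes the counts are too small to be told apart from those shares. Genes not called went both ways. The log2 fold change was 1.57 for HSFB2A and 1.16 for NAC47, but -0.75 for UGT85K8 and -0.74 for PRR59A. HSFB4, a heat stress transcription factor of class B, lies 32286 bp from LOC101513395. It stood at 5.75 FPKM in post A and 1.77 in post B, against 42.2 in pre A and 46.6 in pre B (limma adjusted p = 0.00899). ARF9, an auxin response factor, lies 39198 bp from LOC101492496 and stood at 10.95 FPKM in post A and 4.12 in post B, against 57.4 in pre A and 48.2 in pre B (limma adjusted p = 0.0126). LHY, a factor of the circadian clock, lies 49836 bp from LOC101503928 and was lower as well (limma adjusted p = 0.0206). The 1 called higher was CDPK1, a calcium-dependent protein kinase, 7129 bp from LOC101500893. It stood at 66.1 FPKM in post A and 60.0 in post B, against 45.6 in pre A and 43.6 in pre B (limma adjusted p = 0.0258). The rise of CDPK1 was thus small beside the 20.1-fold ratio of means of its neighbour.

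Genes with a symbol are outside the rule, and 6 of them meet all its other limits. They are NAC05, NAC13, NAC24, NAC4, NAC67 and UGT72B18. NAC proteins are plant transcription factors with roles in development and stress, and UGT genes encode enzymes that add sugars to small molecules. Of all 299 genes with a symbol and a span of at least 300 bp, 6 met the limits, and the members were 0.821% of the LOC genes. By family, 5 of 64 NAC genes and 1 of 68 UGT genes met them. The count was 0 of 22 auxin response factors (ARF) and 0 of 21 heat stress factors (HSF). It was also 0 of 13 MAPK genes, 0 of 7 CYP genes and 0 of 4 expansins. In families this small a count of 0 cannot be told apart from the share over all symbol genes, and no difference between families was tested. Their ratios of smaller post to larger pre value, from 12.5 for NAC67 to 38.7 for UGT72B18, lie within the range of the members. NAC67 stood at 160 FPKM in post A and 234 in post B, against 11.2 in pre A and 12.8 in pre B. Symbols cover 299 such genes, tRNA genes left out, so the families of the 220 members themselves are not told by this count.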

How the data were processed

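Total RNA of ovules was sequenced as paired ends, per the labels' protocols, with 2 libraries per group. The authors deposited FPKM values for each gene and library. Tools named in the submitters' processing notes are FastQC, fastp, HISAT2, Cufflinks and Cuffdiff. No source used here gives their versions, the genome build or a scaling between libraries.

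The members and lists were chosen with earlier results of these data known. Lists of genes by product name, promoter motifs and protein features had been planned and were left out, since the reference tables used here hold no product names or sequences. Symbols and biotypes come from the RefSeq gene table (matched by gene number for 25491 genes), and a sequence takes the chromosome number most of its genes carry there. That table is of another assembly, with the same start for 203 genes, so its coordinates were not used.

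The value of 1 fragment was taken as the 1st percentile of FPKM times span over genes spanning 800 to 4000 bp and above 0 in the library. The transcript may be shorter than the span, so fragment numbers are upper estimates.

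A linear model of log2(FPKM + 1) on group was run in limma 3.58.1 (R 4.3.3) over every gene that reached 1 FPKM in 2 libraries. It used a variance trend, two-sided p-values and Benjamini-Hochberg adjustment at 0.05. The step was tested on simulated data. Residual degrees of freedom were 2 and the prior 2.55. Means carry the SD over 2 libraries. Named were the 12 members highest by ratio, the 8 highest by mean after fertilization, those next to the limits, the 3 with the widest gap between the post libraries on either side, and up to 12 within 50 kb of another member. LOC101498178, LOC113785465, the members without a RefSeq match, and the partners in pairs were named to complete counts. The symbol genes in and near the set were named after their values were seen. Figures were drawn with matplotlib 3.10.9.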

Additional observations from a re-analysis of the deposited data

How the results depend on the processing

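The number of members follows the limits: 407 genes met the rule at 4 times, 122 at 16 times and 359 by group means, while leaving out 1 library gave 235 to 394, with the highest value without post A. Other limits and scalings gave 157 to 280. The median fold of 32.9 was 15.99 with 1 FPKM added to both means, 18.7 from the least favourable libraries, 24.4 under quantile normalization and 25.4 to 38.6 when 1 library was left out. Members called higher numbered 126 without post A and the same number without post B, because only 126 still met the filter, and 187 without pre A and 182 without pre B, so the range was 126 to 187. Across all genes, leaving out 1 library gave 579 to 3828 calls higher and 74 to 3576 lower. The low ends came without pre B, and without pre A they were 677 and 99, where the post pair alone gives the spread. Quantile normalization moved the median log2 fold change of all genes to -0.14, with 2956 calls higher and 4047 lower, and 188 genes then met the rule. Members within 50 kb of another numbered 19, and 2 within 10 kb or 62 within 200 kb. With a replicate block by the ending of the column name, 3395 genes were called higher, 2231 lower and all 220 members higher. The endings match no sample number and the deviations of same-ending libraries correlated at 0.02, so the pairing is not used. Depth limits the ratios of members with few fragments before fertilization and not their post levels.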

Other observations

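Outside the length limit, 2 LOC genes shorter than 300 bp met the limits on values. Of the 11 LOC genes without coordinates, 0 did.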
